A study of Mus musculus with 32 samples.

Results

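The paraoxonase family has 3 genes in the mouse, Pon1, Pon2 and Pon3, and its transcripts were followed here in brown adipose tissue of mice that lacked one or both isoforms of the glucose-responsive transcription factor ChREBP. All probes named for a family member in the array design and present in the processed table were taken, which gave 7 of 37306 kept probes, 2 for Pon1, 4 for Pon2 and 1 for Pon3. No Pon probe was lost to the filter on dim spots. The family was chosen by the log2 fold change of Pon1, which led the increases in total ChREBP KO, so that the Pon values in that comparison are a description and carry no test.

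Paraoxonases are lactonases that open the ring of lipid lactones and also hydrolyse some esters and organophosphates. PON1 is made mainly in the liver, is secreted and travels on high-density lipoprotein (HDL), where it needs apolipoprotein A-I for full activity. PON3 is made in the liver as well. PON2 is found in many tissues and stays inside the cell, in the endoplasmic reticulum and the mitochondria, and all 3 proteins are known to limit lipid peroxidation. Brown adipose tissue burns fatty acids for heat and is not known as a major source of circulating PON1.

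Expression was measured on 32 Agilent 1-colour arrays, each with the total RNA of 1 sample, in 4 groups of 8. Total ChREBP KO mice lack Mlxipl, the gene of ChREBP, and thus the full-length isoform ChREBPα as well as the shorter ChREBPβ, and they were set against WT littermates of that line. In ChREBPβ KO mice the exon from which only ChREBPβ starts, exon 1b, was removed by CRISPR/Cas9 editing of one-cell embryos, and they too had WT littermates of their own. Both deletions are in the germline, so that every tissue of the animal carries them. Per the study's methods the mice were C57BL6/J males, and in all groups they were fasted for 24 hours and then refed for 18 hours with chow and 20% glucose in the drinking water, a regimen meant to activate ChREBP. The ages of these mice were not given in the sources used here.

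Facts of the arrays that touch the Pon values are few. Per array, 64.4% to 71.1% of the spots passed as well above background, and 0 were saturated. Brown fat markers were bright throughout, with a mean over the 12 list genes between 15.0 and 15.8 on the log2 scale on all arrays. That mean does not show the single genes, some of which differed between groups, as given with the other tissue lists below. The brightest Mlxipl probe (A_55_P2119957) averaged 16.15 ± 0.12 in total-line WT, 13.67 ± 0.15 in total ChREBP KO, 16.34 ± 0.14 in ChREBPβ-line WT and 14.84 ± 0.10 in ChREBPβ KO (log2 intensity, SD, n = 8). Of the other two Mlxipl probes, A_55_P2728555 averaged 11.11 in total-line WT and 10.34 in KO, and 11.76 and 10.62 in the ChREBPβ line. A_55_P2045158 was not lower in total ChREBP KO, at 11.22 in WT and 11.36 in KO, and stood at 11.44 and 11.36 in the ChREBPβ line. RNA of other tissues was present in unequal amounts. The mean of the skeletal muscle markers ran from 12.8 to 16.2 in total-line WT and from 14.3 to 15.8 in total ChREBP KO, but from 5.66 to 11.9 in ChREBPβ-line WT and from 5.75 to 11.4 in ChREBPβ KO, so that the muscle signal cannot be told apart from the line. The mean of the 18 liver markers ran from 6.36 to 10.4 in total-line WT, 6.45 to 8.59 in total ChREBP KO, 6.22 to 12.1 in ChREBPβ-line WT and 6.19 to 11.8 in ChREBPβ KO. In bulk tissue, fewer cells of a type and less RNA per cell cannot be told apart.

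The 7 probes are 60 bases long and hybridise to different stretches of the Pon transcripts on the minus strand of chromosome 6. The last 30 bases of each are shown because probes of 1 gene read different stretches and gave different values. Capitals mark AATAAA, the usual polyadenylation signal near the 3′ end of a transcript, and coordinates are those of mouse build mm9. The hexamer stood in 2 of the 7 Pon probes and in 9.77% of the 56605 probes of that length on the array.
Pon1 A_51_P108659, chr6:5118166-5118225, transcript NM_011134: ggcaatagatcctaactagcaagggtttct
Pon1 A_55_P2717174, chr6:5135549-5135608, transcript ENSMUST00000176933: caggtaacacaaactctgcctaaAATAAAt
Pon2 A_66_P114811, chr6:5214631-5214690, transcript NM_183308: gaaaAATAAAATAAAacaaccgaatactgt
Pon2 A_55_P2212908, chr6:5227545-5227604, transcript AK037585: gctcccttggtatggtgttccttaagcaag
Pon2 A_52_P340187, chr6:5220255-5220314, transcript ENSMUST00000123838: tgtaatgtccaatcattctttccccaaatg
Pon2 A_51_P147822, chr6:5213311-5213370, transcript AK018124: tattacattcgttcagaatttcctttgtgg
Pon3 A_51_P256665, chr6:5171553-5171612, transcript NM_173006: tctgtactgtgacctctagatctttctaaa

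The 3 genes lie side by side in the order Pon1, Pon3, Pon2, all read from the minus strand in the RefSeq gene table of build GRCm38.p6, and the outermost probes are 109 kb apart on mm9. An annotation of mm9 was not used here, so that exon or intron is not given for the probes. For each gene the probe with the highest mean over the 32 arrays was the one named for a RefSeq transcript.

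The 250 bases before each transcription start, from RefSeq on GRCm38.p6, are shown because the levels of Pon1 and Pon3 in total ChREBP KO did not overlap those of WT while those of the brightest Pon2 probe did. Capitals mark the GC box GGGCGG, a letter string bound by Sp1 family factors, on either strand.
Pon1, chr6:5193947-5194196, minus strand: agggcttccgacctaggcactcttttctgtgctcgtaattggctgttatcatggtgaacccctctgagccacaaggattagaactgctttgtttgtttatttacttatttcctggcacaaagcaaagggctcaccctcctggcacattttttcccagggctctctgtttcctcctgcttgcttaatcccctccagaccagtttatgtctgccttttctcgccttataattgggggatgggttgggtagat
Pon3, chr6:5256234-5256483, minus strand: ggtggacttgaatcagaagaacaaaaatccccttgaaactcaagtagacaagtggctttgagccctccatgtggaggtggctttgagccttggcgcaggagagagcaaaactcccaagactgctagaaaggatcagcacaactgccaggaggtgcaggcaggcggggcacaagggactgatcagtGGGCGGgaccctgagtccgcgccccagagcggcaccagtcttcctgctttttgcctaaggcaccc
Pon2, chr6:5298341-5298590, minus strand: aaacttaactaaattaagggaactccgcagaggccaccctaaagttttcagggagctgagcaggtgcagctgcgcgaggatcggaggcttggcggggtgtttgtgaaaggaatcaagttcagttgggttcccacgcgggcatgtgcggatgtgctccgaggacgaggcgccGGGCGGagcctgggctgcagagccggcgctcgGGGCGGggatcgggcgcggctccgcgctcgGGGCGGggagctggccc

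The 3 windows differ in base composition. The Pon2 window is 65.6% G and C with 24 CpG, the Pon3 window 56.8% with 6 CpG and the Pon1 window 47.6% with 3 CpG, while the median over 32851 windows of that length was 52.4% with 6 CpG. GGGCGG stood 3 times before Pon2, 1 time before Pon3 and 0 times before Pon1, and 32.7% of all windows held it. The letters CACGTG, the E-box core on which ChREBP binding elements are built, were in none of the 3 windows and in 6.02% of all of them. TATAAA (12.4% of windows), 2 copies of AGGTCA with 1 base between them, read by nuclear receptors such as PPARα (0.0335%), and 2 copies of CACGTG with 5 bases between them (0 of the windows) were also in none of the 3. Both strands were searched, and a paired CACGTG would also count as a single one. Only the exact letters named were searched, so that an element with other letters would be missed. The paired string was in no window at all, so that its absence before the Pon genes says nothing about them. A match is a string of letters and no proof of binding, and its absence concerns these windows alone.

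Pon1, the HDL-borne enzyme, had the widest range of the family. With its brightest probe (A_51_P108659), total-line WT arrays lay between 7.53 and 8.92 with a median of 8.18, and total ChREBP KO arrays lay between 12.64 and 13.28 with a median of 12.87 (log2 intensity). The lowest KO array stood 3.72 above the highest WT array. ChREBPβ-line WT arrays lay between 8.35 and 9.82 with a median of 9.23, and ChREBPβ KO arrays between 9.25 and 10.72 with a median of 10.37. The order of the groups was thus total-line WT, ChREBPβ-line WT, ChREBPβ KO and total ChREBP KO, and each of the first 3 overlapped its neighbour in that order, while total ChREBP KO stood apart.

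**Figure D1:**
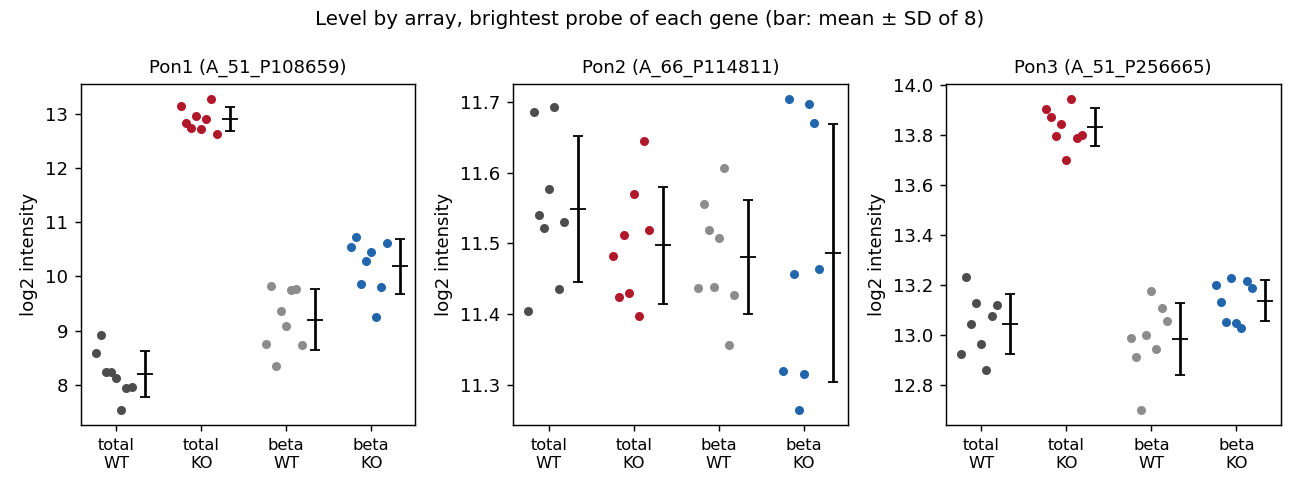
Level of the brightest Pon1, Pon2 and Pon3 probe on each of the 32 arrays (y axis, log2 intensity; the axes differ in range), by group; each point is 1 array and the black bar is the mean ± SD of 8. Total ChREBP KO stands above the other groups for Pon1 (mean 12.91) and Pon3 (mean 13.83), while the 4 groups overlap for Pon2.

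Pon1 was higher in total ChREBP KO than in WT littermates by 4.72 ± 0.21 (log2, SE), which is 26.3-fold. This is the value that chose the family and it is given without a test. The second Pon1 probe (A_55_P2717174), which reads another transcript, averaged 6.69 ± 0.28 in total ChREBP KO against 4.52 ± 0.17 in WT (SD, n = 8). It passed the background criterion on 8 of 8 KO arrays but on 1 of 8 WT arrays, so that its difference of 2.18 ± 0.10 is set against WT values mostly at background. That difference depended on how background was handled, and was 1.25 after normexp correction and 4.13 with the scanner's processed signal.

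ChREBPβ KO allows a test of Pon1, because the difference rests on 16 arrays that took no part in choosing the family. The study, however, already listed Pon1 as up-regulated in brown fat of both ChREBPβ-deficient and total ChREBP KO mice. The test is thus not independent of that earlier report. The exact permutation p uses these 16 arrays alone. The limma SE, interval and adjusted p also draw on the spread of the total-line arrays, which did take part. Pon1 rose by its brightest probe. That probe averaged 10.19 ± 0.51 in ChREBPβ KO and 9.20 ± 0.56 in WT (SD, n = 8), a difference of 0.99 ± 0.21 (log2, SE; 95% interval 0.56 to 1.42) or 1.98-fold, with a limma adjusted p of 0.00647 and an exact permutation p of 0.00373 (two-sided). All 8 KO arrays lay above the WT mean, and the lowest KO array lay 0.57 below the highest WT array. It was among the 1.3% of probes called higher in this comparison, where 2.55% were called in either direction. The second probe averaged 5.36 ± 0.22 against 4.83 ± 0.06. It is given without a test, because it met the background criterion on 8 of 8 KO but 4 of 8 WT arrays and was kept only through the KO groups, where it was high. Its difference was 0.53 ± 0.10, with 0.26 after normexp correction and 1.41 with the processed signal. Its groups did not overlap, as was so for 0.201% of all probes with KO higher, and nothing is read from that share.

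The Pon1 call in ChREBPβ KO was near the threshold in some fits. With only the 16 arrays of the line in the fit, the brightest probe had an SE of 0.24 and a limma adjusted p of 0.0563. The limma call thus depended on including the total-line arrays. The SD of this probe was 0.22 in total ChREBP KO and 0.42 in total-line WT. It was larger in the ChREBPβ line, at 0.51 in KO and 0.56 in WT. A fit with a term for each slide gave a limma adjusted p of 0.0613 at a difference of 1.18. Within the 4 wash batches recorded in the labels, the difference of the brightest probe was 0.60, 1.47, 0.52 and 0.06, positive in each, but 3 of the 4 batches hold a single array of 1 of the groups. The effect in ChREBPβ KO minus that in total ChREBP KO was -3.73 ± 0.30 for the brightest probe, a description, since it holds the contrast that chose the family.

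Pon1 also differed between the WT mice of the lines. ChREBPβ-line WT exceeded total-line WT by 1.01 ± 0.21 with the brightest probe and by 0.31 ± 0.10 with the second, much of whose signal in these groups was not above background (0.12 after normexp correction and 0.73 with the processed signal). No p is given, because the total-line WT arrays also entered the comparison that chose the family. Of the 12 muscle markers 12 were lower in ChREBPβ-line WT than in total-line WT by limma, and of the 18 liver markers 2 were higher and 1 was lower, against 38.9% of all genes called. Once the mean level of the liver markers and of the muscle markers entered the fit as covariates, the difference became -0.05 ± 0.24 (SE), while with Alb as the single covariate it was 0.89 ± 0.20. The muscle level cannot be told apart from the line, so that the first of these fits cannot separate them. With the liver and muscle covariates the difference in ChREBPβ KO was 0.88 with a limma adjusted p of 0.000445, and that in total ChREBP KO was 4.79.

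**Figure D2:**
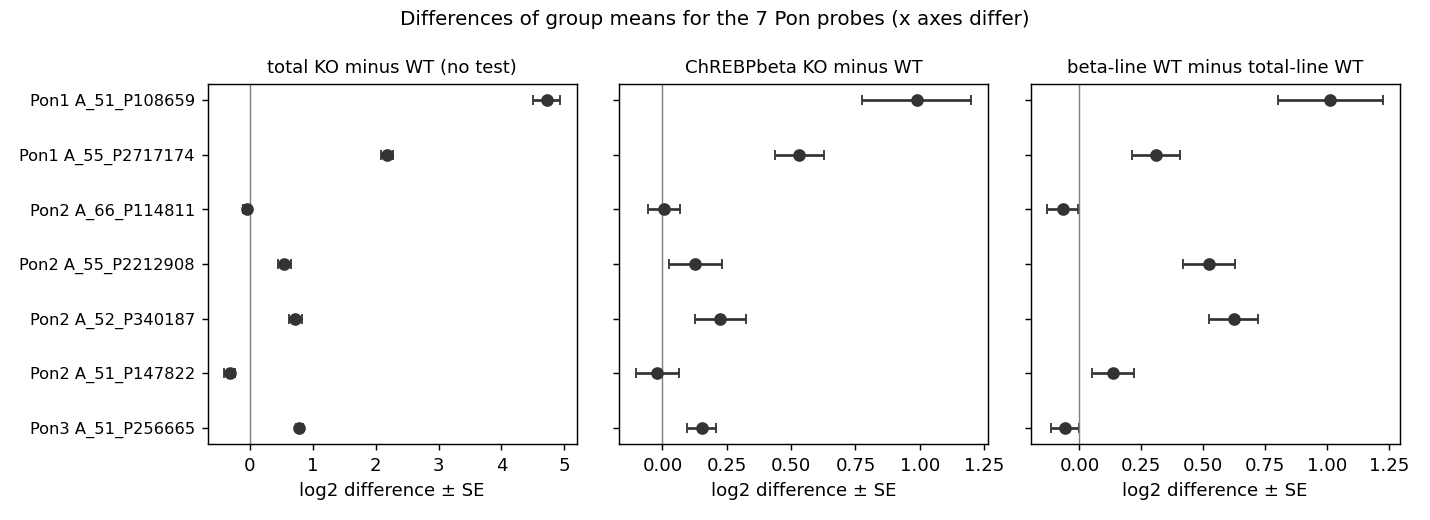
Differences of group means for the 7 Pon probes in 3 comparisons (x axes, log2 difference ± SE from the limma fit over 32 arrays; ranges differ between panels; the grey line is 0). Both Pon1 probes lie right of 0 in all 3 panels, the second kept only through the KO groups, at 4.72 and 2.18 in total ChREBP KO and at 0.99 and 0.53 in ChREBPβ KO, while the Pon2 probes lie on either side of 0.

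Pon3, which like Pon1 encodes a lactonase, was bright in all groups. Its probe (A_51_P256665) lay between 12.86 and 13.23 in total-line WT, 13.70 and 13.94 in total ChREBP KO, 12.70 and 13.18 in ChREBPβ-line WT, and 13.03 and 13.23 in ChREBPβ KO (log2 intensity), with medians of 13.06, 13.82, 12.99 and 13.16. The total ChREBP KO arrays stood 0.47 above the highest WT array of their line, and the 3 other groups overlapped. The difference in total ChREBP KO was 0.79 ± 0.06 (log2, SE), or 1.73-fold, again a description. Of all probes, 7.7% had all 8 total ChREBP KO arrays above all 8 WT arrays and 43.2% were called in that comparison, and nothing is read from the Pon probes against these shares.

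In ChREBPβ KO, Pon3 averaged 13.14 ± 0.08 against 12.99 ± 0.14 in WT (SD, n = 8). The difference of 0.15 ± 0.06 (95% interval 0.03 to 0.27) did not pass, with a limma adjusted p of 0.182, although each of the 8 KO arrays exceeded the mean of WT and the exact permutation p before any correction was 0.0172. Pon3 did not pass in any of the 16 alternative fits either, with limma adjusted p between 0.122 and 0.374. Between the WT mice of the lines the difference was -0.06 ± 0.06 with a limma adjusted p of 0.448.

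Pon2, whose protein stays inside the cell, did not separate the groups by its brightest probe (A_66_P114811). Its means were 11.55 ± 0.10 in total-line WT, 11.50 ± 0.08 in total ChREBP KO, 11.48 ± 0.08 in ChREBPβ-line WT and 11.49 ± 0.18 in ChREBPβ KO, and the ranges of all 4 groups overlapped. In ChREBPβ KO the difference was 0.01 ± 0.06 (95% interval -0.12 to 0.13; limma adjusted p = 0.987). For total ChREBP KO it was -0.05 ± 0.06 (95% interval -0.18 to 0.07).

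The 3 other Pon2 probes did not follow the brightest one. A_55_P2212908 averaged 6.69 ± 0.21 in total-line WT and 7.24 ± 0.23 in total ChREBP KO, and A_52_P340187 averaged 5.66 ± 0.17 and 6.38 ± 0.19. The groups did not overlap for either, as was so for 7.7% of all probes with KO higher, and nothing is read from that share. A_51_P147822 went the other way, from 5.94 ± 0.15 to 5.62 ± 0.14, with 8 of 8 KO arrays below the WT mean. All 3 passed the background criterion on 32 arrays. The probes of 1 gene thus disagree in direction, and a mean over the 4 Pon2 probes gave 0.23 in total ChREBP KO.

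**Figure D3:**
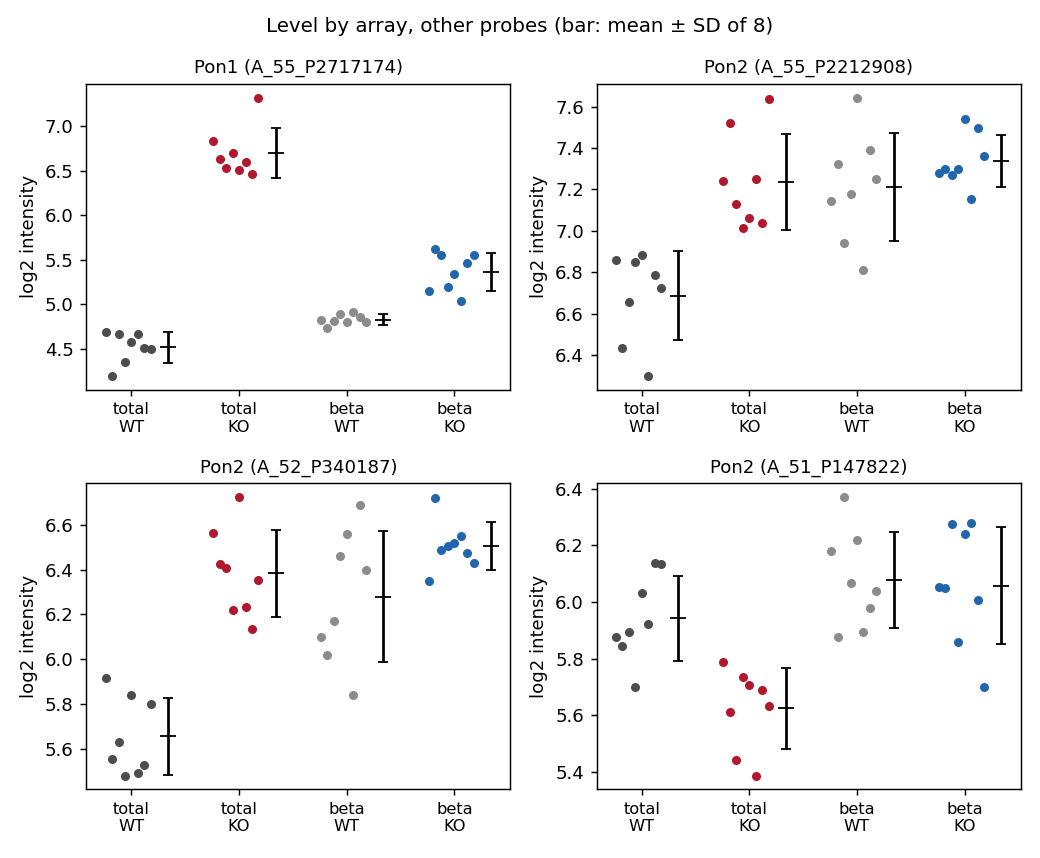
Level of the second Pon1 probe and of the 3 other Pon2 probes on each of the 32 arrays (y axes, log2 intensity; ranges differ), by group; each point is 1 array and the black bar is the mean ± SD of 8. A_55_P2212908 and A_52_P340187 are lowest in total-line WT (means 6.69 and 5.66), and A_51_P147822 is lowest in total ChREBP KO (mean 5.62).

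None of the 4 Pon2 probes was called by limma in ChREBPβ KO, against 2.55% of all probes, and 1 had an unadjusted p under 0.05. The closest was A_52_P340187 with 0.23 ± 0.10 (limma adjusted p = 0.278; exact permutation p = 0.0583). The lines themselves did differ, as A_55_P2212908 was 0.52 ± 0.10 higher in ChREBPβ-line WT than in total-line WT (limma adjusted p = 0.000157) and A_52_P340187 was 0.62 ± 0.10 higher (limma adjusted p = 7.51e-06), with 8 of 8 arrays above the total-line WT mean for each. These 2 of the 5 Pon2 and Pon3 probes stand against 39.2% of all probes called between the WT groups, and the total-line WT arrays are shared with the comparison that chose the family. Under the liver and muscle covariates the first of the 2 was no longer called (limma adjusted p = 0.108) and A_51_P147822 was, at 0.46 (limma adjusted p = 0.00843).

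Alb, the gene of the liver's main secreted protein, was used to follow liver RNA on each array, since liver expresses Pon1 and Pon3. Its level (A_55_P2843443, log2 intensity) ran from 5.67 to 13.4 in total-line WT with a median of 8.63, from 5.25 to 10.8 in total ChREBP KO with a median of 5.79, from 5.26 to 15.4 in ChREBPβ-line WT with a median of 11.5, and from 5.02 to 14.9 in ChREBPβ KO with a median of 12.6. Total ChREBP KO, where Pon1 was highest, was thus the group with the lowest median Alb level. The Alb difference was not called in either KO, at -0.00 ± 1.61 (SE) in ChREBPβ KO and -1.88 ± 1.61 in total ChREBP KO. With an SE of that size, the lack of a call does not show that the groups held equal liver RNA.

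Within the groups, Pon1 ran with Alb among total-line WT mice, where Pon1 was lowest. Over these 8 arrays Pearson's r was 0.903 and Spearman's rho was 0.952, and r was 0.84 without the 2 arrays farthest from the median Alb level. These values carry no p, since the Pon levels of both total-line groups took part in choosing the family. The array with more Alb also had more Pon1 in each of the 4 wash batches, which hold 2 arrays of this group each. In batch 1, however, the 2 arrays were nearly tied, with Pon1 at 8.23735 and 8.23656. In ChREBPβ-line WT r was 0.613 (exact permutation p = 0.110, adjusted 0.659), with 0.915 without 2 arrays but 0.191 once batch means were subtracted. In ChREBPβ KO r was 0.173 (exact permutation p = 0.683, adjusted 0.896) and 0.82 once batch means were subtracted, over the 7 arrays in batches with at least 2. For total ChREBP KO r was -0.178 over 8 arrays, but the Alb levels there split into 6 arrays and 2 arrays far above them, and over the 6 arrays r was 0.565.

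In all, 12 relations were computed, 3 genes in 4 groups, each p over 40320 pairings and adjusted over the 12. None of those in the ChREBPβ-line groups passed. For Pon2, r over 8 arrays ran from -0.0557 in total ChREBP KO to 0.468 in ChREBPβ KO, but it was not stable: without 2 arrays it was -0.799 in total-line WT and 0.784 in total ChREBP KO, and with batch means subtracted it was 0.963 over 6 arrays of ChREBPβ-line WT. For Pon3, r ran from -0.122 in ChREBPβ KO to 0.514 in total-line WT, and with batch means subtracted from -0.642 in ChREBPβ-line WT to 0.636 in total ChREBP KO. Leaving out the 2 arrays of each group with the most Alb, an alternative chosen after seeing the data, gave Pon1 differences of 1.06 in ChREBPβ KO (limma adjusted p = 0.0143) and 4.93 in total ChREBP KO. With Alb as a covariate they were 0.99 and 4.82.

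**Figure D4:**
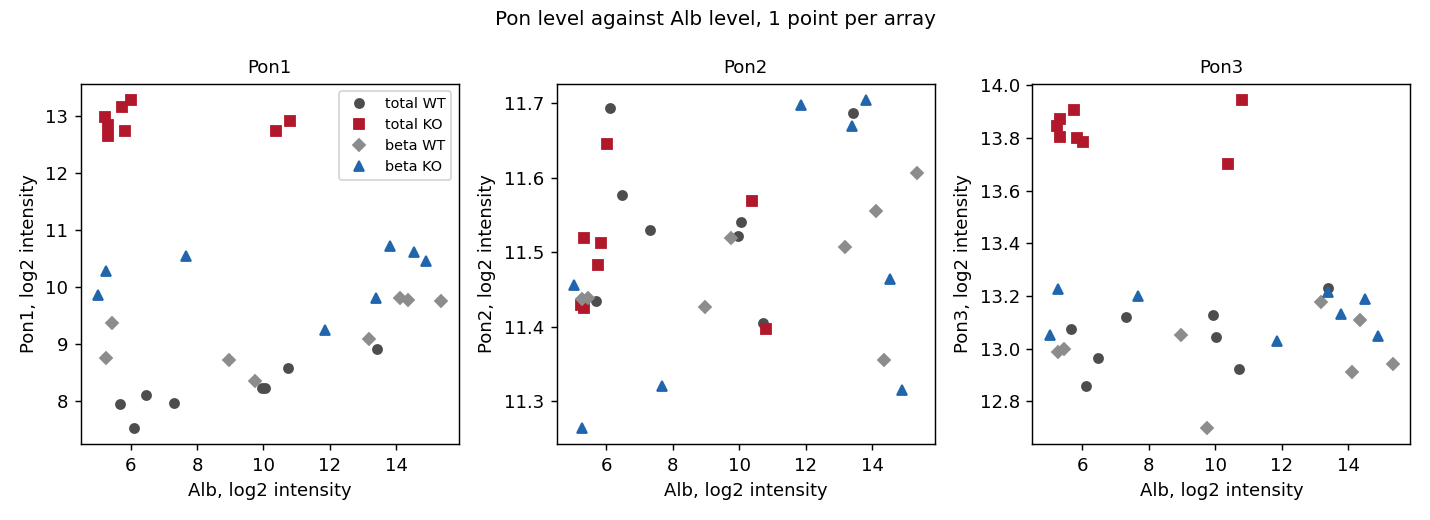
Level of the brightest Pon1, Pon2 and Pon3 probe (y axes, log2 intensity) against the Alb level (x axes, log2 intensity) of the same array; each point is 1 of 32 arrays, with shape and colour for the group. The total ChREBP KO arrays stand at the top of the Pon1 panel at Alb levels of 5.25 to 10.8, and the total-line WT arrays rise from lower left to upper right (r = 0.903 over 8 arrays).

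Few genes of the liver list were called, but liver RNA varied widely between arrays, so that the lack of a call does not show equal amounts. Of its 18 genes, all kept, limma called 0 in ChREBPβ KO (0 also at an unadjusted p under 0.05), against 2.69% of all 24677 genes by their brightest probe, and 2 rose in total ChREBP KO, Cyp2e1 by 2.49 ± 0.52 (limma adjusted p = 0.000226) and Kng1 by 0.53 ± 0.15 (limma adjusted p = 0.00453), with a list median of -0.76 against 0.01 over all genes. In total ChREBP KO 44.1% of all genes were called, the share against which the counts of each list in that comparison stand. Cyp2e1, a cytochrome that metabolises ethanol, is not made by liver alone. Of 12 muscle genes 0 were called in either KO, also at an unadjusted p under 0.05, and 12 of 12 were lower in ChREBPβ-line WT than in total-line WT, with a list median of -6.39. Of 10 macrophage genes 7 were lower in total ChREBP KO (44.1% of all genes called), led by Mrc1 with -1.04, and 0 were called in ChREBPβ KO (1 at an unadjusted p under 0.05). Of 4 kept blood genes 0 were called in either KO (0 in ChREBPβ KO and 2 in total ChREBP KO at an unadjusted p under 0.05), and of 7 kept white fat genes 1 rose in ChREBPβ KO, Sncg with 0.69, while 2 rose and 1 fell in total ChREBP KO. The parts of these tissues in the Pon values were not tested beyond the covariate fits. Of 12 brown fat genes 1 rose in ChREBPβ KO, Plin1 with 0.23, against 2.69% of all genes called. Under total deletion 7 rose and 2 fell, against 44.1% of all genes. The largest changes were Elovl3 at -3.16 ± 0.41, Dio2 at 2.19 ± 0.33, Ppargc1a at 1.18 ± 0.18 and Adipoq at 0.65 ± 0.08. In ChREBPβ-line WT 4 were higher and 3 lower than in total-line WT, against 38.9% of all genes.

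Other genes of the biology around PON1 were taken from lists. HDL proteins and lipoprotein enzymes had 21 of 23 genes kept. Of these 0 were called in ChREBPβ KO, against 2.69% of all genes (2 at an unadjusted p under 0.05). Under total deletion 3 rose and 4 fell, against 44.1% of all genes called. Lipg, endothelial lipase, was at -1.23 ± 0.09 and Apoc3, an inhibitor of triglyceride clearance, at -1.58 ± 0.43. Apod, a carrier of small lipids, was at -0.61 ± 0.20, whereas Apoe rose by 0.77 ± 0.09. The liver list median was -0.76 in that comparison, and the part of liver RNA in the Apoc3 value was not tested. Apoa1, whose protein carries PON1, was at -0.01 ± 0.85 in ChREBPβ KO and -0.75 ± 0.85 in total ChREBP KO and passed in neither.

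Other lactone and ester hydrolases had 19 of 23 genes kept. In ChREBPβ KO 0 were called, against 2.69% of all genes (3 at an unadjusted p under 0.05). Under total deletion 7 rose and 3 fell, against the same 44.1% of all genes, with the largest changes in Nceh1, a cholesteryl ester hydrolase, at 1.26 ± 0.20, the carboxylesterases Ces1f at 1.07 ± 0.14 and Ces2c at -0.89 ± 0.36, and Ces1d, a lipase of fat cells, at 0.83 ± 0.08. The carboxylesterases are close copies of each other and may share hybridisation, so that the member is uncertain.

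Antioxidant enzymes were all kept, 29 of 29. In ChREBPβ KO 3 rose and 0 fell, against 2.69% of all genes called, namely Gss, which completes glutathione, by 0.71 ± 0.15 (limma adjusted p = 0.00627), the glutaredoxin Glrx by 0.36 ± 0.09 (limma adjusted p = 0.0166) and catalase (Cat) by 0.29 ± 0.06 (limma adjusted p = 0.00464). Under total deletion 10 rose and 6 fell, against 44.1% of all genes, among them Gss by 1.95 ± 0.15, the heme oxygenase Hmox1 by 1.23 ± 0.20 and the extracellular superoxide dismutase Sod3 by 0.93 ± 0.08, while Gclm, a subunit of the enzyme that starts glutathione synthesis, stood at -0.90 ± 0.09. The median difference of the list was 0.04 in ChREBPβ KO and 0.06 in total ChREBP KO, against -0.00 and 0.01 over all genes.

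Transcription factors that have been linked to Pon1 promoters had 16 of 20 genes kept. Ppard was the single one called in ChREBPβ KO, at 0.22 ± 0.05 (limma adjusted p = 0.0178), against 2.69% of all genes. Under total deletion 6 rose and 2 fell, against 44.1% of all genes. Ppara, the fatty acid receptor, rose by 1.51 ± 0.09 and Foxo1 by 0.68 ± 0.10, while Srebf1, a driver of lipogenesis, was at -1.05 ± 0.10 and Nr5a2 at -0.66 ± 0.13.

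The genes next to the cluster were also examined, 5 on either side, of which 7 had a kept probe. None of the 7 was called by limma in ChREBPβ KO, against 2.69% of all genes, and 1 had an unadjusted p under 0.05. In total ChREBP KO 0 rose and 2 fell, Sgce by 0.26 and Sem1 by 0.12, against 44.1% of all genes called. Asb4 and Pdk4, which come right after Pon2, were at -0.35 ± 0.15 and -0.20 ± 0.22 in that comparison and did not pass. Between the WT groups 5 of the 7 were called, against 38.9% of all genes.

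The profiles most like that of each Pon gene were listed as a description over the 32 arrays, which share groups and batches. Pon1 was followed most closely by C77080 (r = 0.966), Vipr2, a receptor for the neuropeptide VIP (0.959), Car3, the abundant carbonic anhydrase of fat and muscle (0.957), Plppr4 (0.949) and Kctd1 (0.943). Vipr2 was at 2.95 and Car3 at 2.41 in total ChREBP KO. The r values over all arrays hold the group differences, among them the total ChREBP KO difference that chose the family. Above an r of 0.9 stood 0.397% of genes for Pon1 and 0.431% for Pon3. After group means were subtracted, the closest to Pon1 were other genes, Akr1c12 (0.755), Gchfr (0.73), Ugt2b37 (0.669), Ugt3a2 (0.668) and 1810008I18Rik (0.667). For Pon3 the closest were Jmy (0.949), A830018L16Rik (0.948), Rab10os (0.947), Zbtb10 (0.946) and Rwdd4a (0.946), and with group means subtracted Dusp11 (0.84), Smarca5-ps (0.785), Zfx (0.755), Ddx46 (0.733) and 1600012H06Rik (0.732). For Pon2 they were Hpgd (0.745), Cacng7 (0.734), Wbp1l (0.691), Ehmt2 (0.678) and Gnai1 (0.676), and with group means subtracted Capn7 (0.827), Wbp1l (0.791), Ccnd3 (0.785), Cacng7 (0.763) and Gsn (0.75).

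Within the family, the brightest Pon1 and Pon3 probes had r = 0.904 over the 32 arrays and 0.399 once group means were subtracted. The 2 Pon1 probes had 0.946 and -0.01. The first value holds the total ChREBP KO difference that chose the family. The second says little, since A_55_P2717174 passed the background criterion on 1 of 8 total-line WT and 4 of 8 ChREBPβ-line WT arrays. Pon2 by its brightest probe had -0.14 with Pon1 and -0.10 with Pon3. Pon1 and A_51_P147822 of Pon2 had -0.66 over all arrays and -0.51 with group means subtracted.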

How the data were processed

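RNA of 32 brown adipose tissue samples was labelled with Cy3 and hybridised to Agilent arrays. The scanner files that the authors deposited hold median pixel intensity per spot, as Agilent Feature Extraction 10.10.1.1 wrote it, not normalized. A series table of the authors holds log2 values, and the study's methods describe how it was made. The main values were recomputed from the intensities by those methods. Controls were left out, and spots had to be found, positive and clearly over background, either on 26 or more of the 32 arrays or on 6 or more within a group; log2 values were then quantile normalized, with the median taken over spots of the same probe. Of 59305 spots 39985 were kept, giving 37306 probes, and the values differed from the deposited table by 0.00298 on average over 37304 probes. RefSeq accessions stood on 25202 probes, and 23895 of these were found in the GRCm38.p6 gene table. In all 24677 genes were named.

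Each probe was fitted with limma 3.58.1 in R 4.3.3 to the 32 arrays, with a mean for each of the 4 groups and no other term. Two-sided p values were adjusted by Benjamini-Hochberg across the kept probes, and a call needed an adjusted p under 0.05. Single values were also tested by exact permutation over all 12870 splits of 8 against 8. Intervals cover 95%. In lists a gene stands with its brightest kept probe. The labels give separate samples with no statement of the animals behind them, so that p values measure the spread between samples. No 2 arrays were alike beyond a correlation of 0.9975. Arrays have no read depth, and their number limits the precision.

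The family, the gene lists, the motifs and the tests were chosen with earlier results of these data known. The genes named were all Pon probes, Mlxipl, Alb, up to 4 called genes of a list by size of change, 5 neighbours on each side and the 5 most correlated genes per Pon gene. Apoa1 and Kng1 were named besides for their role or because the count was small. The alternatives were other signals, background corrections, scalings and filters, wash batch, slide or replicate number as a block, liver and muscle covariates, array weights, fewer groups, mean over probes and leaving out each array. The fits were tested on simulated data. Correlations and motifs were computed in Python 3.11.15 with NumPy 2.4.6.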

Additional observations from a re-analysis of the deposited data

Results flagged for a closer look

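One value stood far from the rest of its group. On the array of total ChREBP KO replicate 8, the second Pon1 probe (A_55_P2717174) was at 7.32, and the gap to the next array was 0.573 of the range of its 8 arrays, above Dixon's critical share for 8 values. On the same array the brightest Pon1 probe was at 12.64, the lowest of its group. The 7 Pon probes in 4 groups gave 28 such checks, and chance alone flags about 1 in 20 groups.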

How the results depend on the processing

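Signal over background limits the second Pon1 probe, and the number of arrays limits all values. The Pon1 call in ChREBPβ KO held in 14 of 16 alternatives, with differences from 0.76 to 1.18. The 0.76, among these 14, came from the mean over both Pon1 probes. That mean takes in the second probe, kept only through the KO groups, so that nothing is read from its call. The Pon1 call was lost at 0.99 with the groups of the contrast alone and at 1.18 with slide as a fixed term. The number of genes called there fell from 664 to 339 and 110. Leaving out each array in turn kept the Pon1 call in 32 of 32 fits (0.87 to 1.12). The genes called in ChREBPβ KO then numbered 473 to 1070, the latter without ChREBPβ-line WT replicate 5, and 354 without the 2 arrays of most Alb per group, a setting added after seeing the data. The liver and muscle covariates turned the Pon1 difference between the WT groups from 1.01 to -0.053 and brought the genes called there from 9603 to 3639. Averaging the probes of a gene gave 3.45 for Pon1 and 0.23 for Pon2 in total ChREBP KO, -2.69 and -0.14 for the differences between the KO effects, and turned Pon2 between the WT groups from -0.07 to 0.30 (limma adjusted p = 2.27e-05), since its probes disagree. For Pon3 in total ChREBP KO, 75th percentile scaling gave 0.68 with either the processed signal or the median intensity. Within wash batches, Pon1 in ChREBPβ KO was 0.058 in batch 4, Pon2 was -0.26 in batch 1 and 0.18 in batch 4, and Pon3 was 0.30 and -0.028 there. In total ChREBP KO, Pon1 was 4.22 in batch 2 and 5.47 in batch 4, and Pon3 was 0.60 in batch 2. Between the WT groups, Pon1 was 1.58, 0.31 and 1.51 in batches 1 to 3, Pon2 was -0.17 in batch 2, and Pon3 was -0.20 in batch 2 and 0.11 in batch 3. The causes of these shifts were not tested, apart from the disagreement of the Pon2 probes. The replicate numbers were not taken as pairs, since the labels give no shared origin and not every same-numbered correlation of deviations was over 0.1: 6 of 8 were in the ChREBPβ line (-0.196 to 0.532) and 0 of 8 in the total line (-0.304 to 0.0801). The replicate block left the Pon1 difference at 0.99 (limma adjusted p = 0.00578), called 735 genes in ChREBPβ KO and changed no call of a brightest Pon probe. The other differences of the brightest probes kept their side of the threshold or moved by less than the spread between replicates.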
